A study of Mus musculus with 19 samples.

Results

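NRF2, encoded by Nfe2l2, its repressor KEAP1 and 8 genes widely used as readouts of NRF2 activity were followed in the mouse prostate on a high fat and a control diet. The 10 genes were listed by name and not by a threshold on their values, but with earlier results of these data known. The platform annotation gave 19 probe sets to these genes alone, out of probe sets for 18193 genes in all. For each gene the probe set with the highest mean over all arrays was used. A filter on low values left 11728 genes for testing, and 9 of the 10 genes were among them. Slc7a11 was not.

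Whole lobes of the prostate, the dorsolateral (DLP) and the ventral (VP), were taken from C57BL/6J mice, and their total RNA was hybridised to 3′ expression arrays, 1 sample per array. HFD mice, 5 in number, had free access to a high fat diet for 12 weeks from an age of 8 weeks. Control mice, also 5, had a control diet over the same time. The 19 arrays comprised 4 of HFD DLP, 5 of control DLP, 5 of HFD VP and 5 of control VP. All mice were of the same strain and no genetic change is given in the labels. C57BL/6J mice are known to carry a deletion within Nnt, a mitochondrial NADPH-forming enzyme, which both diets and both lobes would then share. No label ties an array to a mouse, so the spread behind the p-values is that between arrays of a group and may be in part technical.

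NRF2 is a transcription factor that KEAP1 holds in the cytoplasm and hands to a CUL3 ubiquitin ligase for degradation. Electrophiles and oxidants modify cysteines of KEAP1, NRF2 then accumulates, pairs with a small MAF protein and binds antioxidant response elements in its target genes. The targets make and recycle glutathione, reduce quinones, degrade haem and repair oxidised peroxiredoxins. NRF2 activity is set largely by protein stability, which an array of RNA does not measure.

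RefSeq promoter sequences, on GRCm38.p6, were at hand for 7 of the 10 genes and not for Gclc, Hmox1 and Gsr. Each window runs from 250 bases before to 50 bases after the start of the gene. The core of the antioxidant response element was searched as TGACNNNGC on both strands, its reverse complement being GCNNNGTCA. A further motif, TGANTCAGC with the reverse complement GCTGANTCA, was added after the sequences had been seen. The first motif lay in 3 of the 7 promoters (Nfe2l2, Gclm and Srxn1), and in 12.39% of 32851 mouse promoters of the same length. The second lay in 2 of the 7 (Srxn1 and Osgin1), and in 1.19% of all promoters. These 4 promoters are shown because they hold the matches, which are in capitals, and because Nfe2l2, Gclm, Srxn1 and Osgin1 include genes that went both ways between the lobes.
Nfe2l2: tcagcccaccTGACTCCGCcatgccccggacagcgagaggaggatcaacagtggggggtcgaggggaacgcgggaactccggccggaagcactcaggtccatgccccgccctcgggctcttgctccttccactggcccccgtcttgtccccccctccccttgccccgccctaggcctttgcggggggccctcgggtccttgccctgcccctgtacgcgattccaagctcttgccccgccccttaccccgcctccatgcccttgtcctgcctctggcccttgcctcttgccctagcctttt
Gclm: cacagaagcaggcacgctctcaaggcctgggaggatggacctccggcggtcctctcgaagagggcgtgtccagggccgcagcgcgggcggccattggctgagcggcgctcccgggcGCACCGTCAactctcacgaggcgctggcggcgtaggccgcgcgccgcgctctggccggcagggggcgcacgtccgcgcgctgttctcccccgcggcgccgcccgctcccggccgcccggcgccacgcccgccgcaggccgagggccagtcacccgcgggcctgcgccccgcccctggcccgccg
Srxn1: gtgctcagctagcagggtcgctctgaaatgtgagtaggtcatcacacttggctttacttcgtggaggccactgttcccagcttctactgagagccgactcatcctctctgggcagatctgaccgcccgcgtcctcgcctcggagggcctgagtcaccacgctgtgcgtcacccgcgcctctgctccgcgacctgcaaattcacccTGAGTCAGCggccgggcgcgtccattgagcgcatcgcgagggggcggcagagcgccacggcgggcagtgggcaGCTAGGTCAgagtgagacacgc
Osgin1: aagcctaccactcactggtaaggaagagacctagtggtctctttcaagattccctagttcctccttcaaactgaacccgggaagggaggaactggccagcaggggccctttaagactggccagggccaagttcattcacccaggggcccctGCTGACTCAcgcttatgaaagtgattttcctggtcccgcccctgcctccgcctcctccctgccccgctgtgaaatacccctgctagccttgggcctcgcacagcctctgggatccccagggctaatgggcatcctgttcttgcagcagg
The Nfe2l2 window is chr2:75704614-75704913 on the minus strand, and its match, TGACTCCGC, starts 240 bases before the start of the gene. The Gclm window is chr3:122245307-122245606 on the plus strand, and GCACCGTCA, a match on the opposite strand, starts 134 bases before it. The Srxn1 window is chr2:152105274-152105573 on the plus strand. It holds TGAGTCAGC from 45 bases before the start and GCTAGGTCA, on the opposite strand, from 28 bases after it. The Osgin1 window is chr8:119436897-119437196 on the plus strand, with GCTGACTCA, on the opposite strand, from 99 bases before it. The windows of Keap1, Nqo1 and Slc7a11 held neither motif. Sequence outside the windows was not searched, so a window without a match does not say that the gene lacks an element. A match says that these letters occur in the window and nothing of whether NRF2 binds there.

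Levels are given as log2 values, converted from the deposited log10 values. Because the sorted values were identical on all arrays, a level is in effect the rank of a probe set on its array, so that a shift of most genes together cannot be seen. The median of each array was 1.85. Levels of different genes come from different probe sets and were not set against each other. An earlier analysis had set apart HFD VP 3 and control VP 4 by their immune genes and spiked-in controls. Without both arrays, the numbers of the 9 genes past the threshold were the same as with them in each of the 6 comparisons. Since the lobes are whole tissue, fewer cells of a type and less RNA per cell cannot be told apart.

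**Figure D1:**
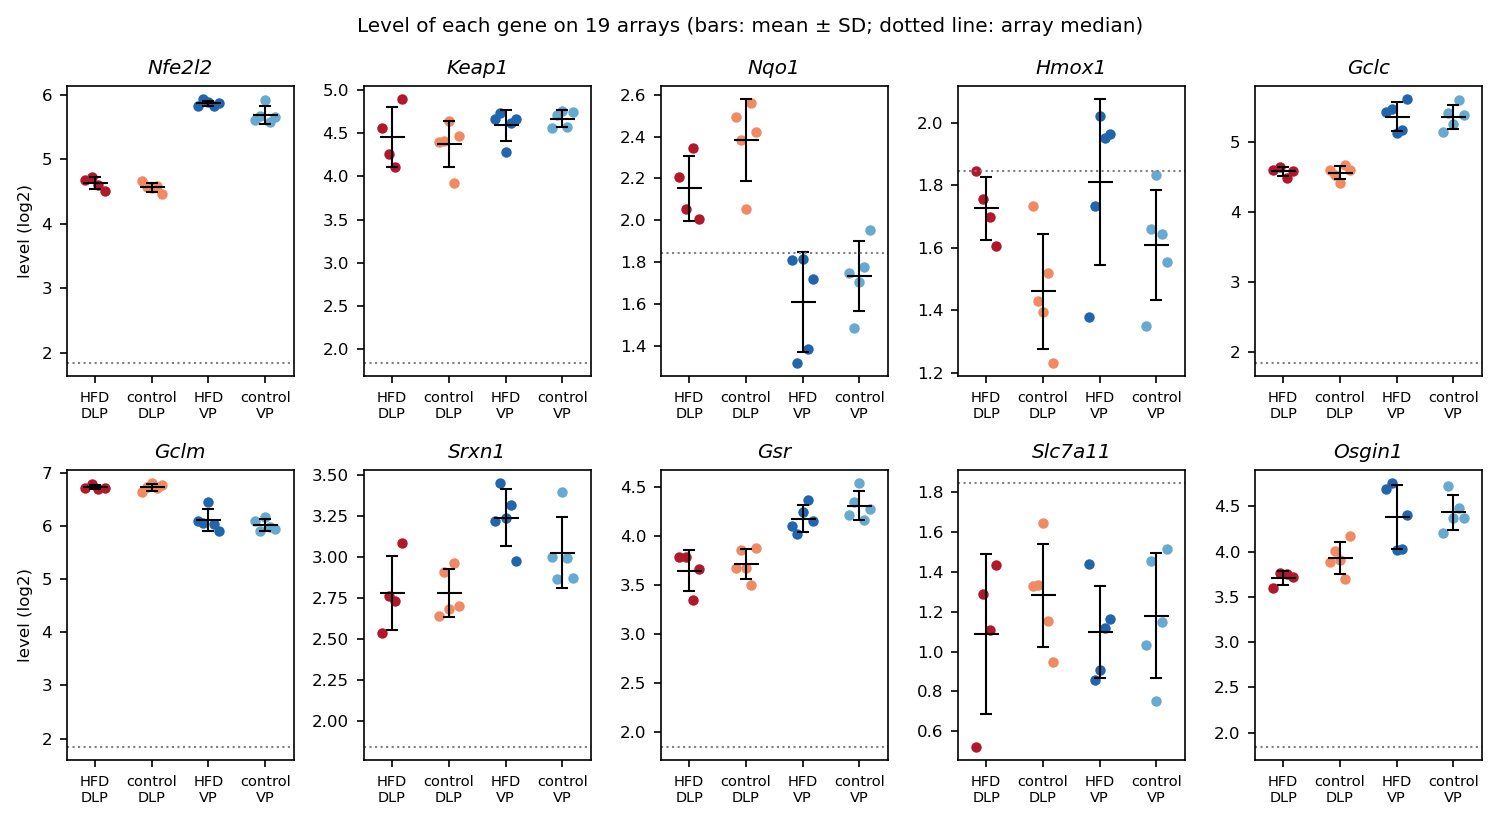
Level of each of the 10 genes (log2) on every array, with HFD DLP, control DLP, HFD VP and control VP from left to right; points are arrays, bars are the mean and SD, and the dotted line is the array median of 1.85. Nfe2l2, Gclc, Gsr and Osgin1 lie lower in DLP than in VP on both diets, Gclm and Nqo1 lie higher in DLP, and Slc7a11 stays below the array median throughout.

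The lobes differed far more than the diets. Of the 9 genes, 2 were higher and 4 were lower in DLP than in VP on the control diet, and 2 were higher and 5 lower on the high fat diet. Lobe differences were common on these arrays. On the control diet 28.2% of the 11728 genes were higher in DLP and 26.8% were lower, and on the high fat diet 26.8% were higher and 26.1% lower (limma, adjusted p under 0.05). The arrays of the lobes did not overlap for 6 of the 9 genes on either diet, and these were the same genes both times: Nfe2l2, Gclc, Gclm, Nqo1, Gsr and Osgin1. The share over all genes without overlap was 39.3% on the control diet and 44.4% on the high fat diet. The median lobe difference of the 9 genes was -0.30 on the control diet and -0.46 on the high fat diet, against 0.0045 and 0.0039 for all genes.

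Nfe2l2, the gene of NRF2 itself, had the lobe difference of greatest size among the 9 genes. Its level in DLP was 4.68, 4.73, 4.61 and 4.51 on the HFD arrays and 4.67, 4.57, 4.56, 4.58 and 4.47 on the control arrays. In VP it was 5.83, 5.94, 5.88, 5.84 and 5.87 on the HFD arrays and 5.61, 5.68, 5.93, 5.58 and 5.66 on the control arrays. Each DLP array lay below each VP array, with a wide gap. On the control diet Nfe2l2 was 2.18-fold lower in DLP, a log2 difference of -1.12 with an SE of 0.07, a 95% interval from -1.26 to -0.98 and limma's adjusted p of 2.91e-11. On the high fat diet it was 2.36-fold lower, a log2 difference of -1.24 with a 95% interval from -1.39 to -1.09 and limma's adjusted p of 1.74e-11. The exact permutation p was 0.00794 on the control diet and 0.0159 on the high fat diet, the smallest that 5 against 5 and 4 against 5 arrays can give. A second, dimmer Nfe2l2 probe set was above the array median on 6 arrays, all of VP, and so passed the filter through VP alone. Its log2 differences, -0.73 on the control diet and -0.76 on the high fat diet, are given as values and not as support.

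Keap1, the adaptor that presents NRF2 for degradation, did not pass the test between lobes. Its level was 4.45 ± 0.35 in HFD DLP (SD, n = 4), 4.37 ± 0.27 in control DLP, 4.59 ± 0.18 in HFD VP and 4.67 ± 0.10 in control VP (SD, n = 5 each). The groups overlapped on both diets. The log2 difference between DLP and VP was -0.30 on the control diet (95% interval from -0.58 to -0.01, limma's adjusted p 0.0709) and -0.14 on the high fat diet (interval from -0.44 to 0.16, adjusted p 0.445). Among the settings tried, the control diet difference passed the threshold with the mean of both Keap1 probe sets, without control DLP 3 and without HFD DLP 4, with adjusted p of 0.044, 0.0352 and 0.0407.

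The subunits of glutamate-cysteine ligase, the first enzyme of glutathione synthesis, went opposite ways. Gclc, the catalytic subunit, was lower in DLP, and Gclm, the modifier subunit that raises its affinity for glutamate, was higher. The Gclc level in DLP was 4.60, 4.64, 4.48 and 4.59 on the HFD arrays and 4.59, 4.53, 4.41, 4.67 and 4.60 on the control arrays. In VP, Gclc was at 5.42, 5.47, 5.14, 5.17 and 5.61 on the HFD arrays and 5.15, 5.42, 5.26, 5.60 and 5.38 on the control arrays. No DLP array reached a VP array. Gclc was 1.74-fold lower in DLP on the control diet, a log2 difference of -0.80 with a 95% interval from -0.996 to -0.609, and 1.72-fold lower on the high fat diet. Limma's adjusted p was 4.27e-07 on the control diet and 1.42e-06 on the high fat diet.

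For Gclm the DLP arrays read 6.71, 6.78, 6.69 and 6.71 on the high fat diet and 6.63, 6.72, 6.80, 6.70 and 6.76 on the control diet. In VP the Gclm level was 6.09, 6.05, 6.45, 6.04 and 5.91 on the HFD arrays and 6.09, 5.90, 6.16, 5.97 and 5.94 on the control arrays. The DLP arrays were all above the VP arrays and lay close together, whereas HFD VP 3 was the highest of VP. Gclm was 1.64-fold higher in DLP on the control diet, a log2 difference of 0.71 with a 95% interval from 0.54 to 0.88 and limma's adjusted p of 2.82e-07. On the high fat diet it was 1.53-fold higher with an adjusted p of 4.55e-06. The other probe set of each gene gave the same directions: on the control diet its log2 difference was -0.67 for Gclc and 0.75 for Gclm. Gclm has a match to the antioxidant response element core in the promoter printed above, and no promoter sequence was at hand for Gclc.

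Nqo1 encodes a quinone reductase and is the most widely used NRF2 readout. Its level was 2.21, 2.05, 2.35 and 2.01 in HFD DLP and 2.50, 2.39, 2.05, 2.56 and 2.42 in control DLP. It was 1.81, 1.32, 1.81, 1.39 and 1.72 in HFD VP and 1.75, 1.49, 1.70, 1.78 and 1.95 in control VP. Each DLP array was above the array median, but of the VP arrays control VP 5 was the only one to be so. The probe set therefore passed the filter through the DLP arrays, and its place in the counts is no support for a difference. Nqo1 was 1.57-fold higher in DLP on the control diet, a log2 difference of 0.65 (95% interval from 0.39 to 0.91, limma's adjusted p 0.000205), and 1.46-fold higher on the high fat diet (log2 0.54, interval from 0.26 to 0.82, adjusted p 0.00194). For values this low the size depends on the offset in the logarithm. With 16 in place of 1, the log2 differences of Nqo1 were 0.14 and 0.11. Both passed the threshold under the same filter, so this is no support either.

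Gsr, glutathione reductase, which regenerates reduced glutathione with NADPH, was lower in DLP. Its level was 3.79, 3.79, 3.34 and 3.67 in HFD DLP and 3.68, 3.86, 3.67, 3.50 and 3.88 in control DLP. In VP it was 4.10, 4.02, 4.25, 4.37 and 4.15 on the HFD arrays and 4.21, 4.35, 4.54, 4.16 and 4.28 on the control arrays. The lobes did not overlap. The log2 difference of Gsr was -0.59 on the control diet, or 1.51-fold lower (95% interval from -0.80 to -0.38, limma's adjusted p 5.18e-05), and -0.53 on the high fat diet, or 1.45-fold lower (adjusted p 0.000301).

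Osgin1, an oxidative stress-induced growth inhibitor gene, was also lower in DLP. It read 3.59, 3.77, 3.75 and 3.72 in HFD DLP and 3.88, 4.00, 3.90, 3.69 and 4.17 in control DLP. The VP arrays read 4.69, 4.75, 4.02, 4.02 and 4.41 in HFD mice and 4.20, 4.73, 4.38, 4.48 and 4.37 in control mice. The highest control DLP array came close to the lowest control VP array without reaching it. Osgin1 was 1.42-fold lower in DLP on the control diet (log2 -0.50, 95% interval from -0.78 to -0.22, limma's adjusted p 0.00372) and 1.59-fold lower on the high fat diet (log2 -0.67, interval from -0.97 to -0.37, adjusted p 0.000549). With the offset of 16 the log2 differences on the control diet were -0.27 for Osgin1 and -0.31 for Gsr, and on the high fat diet -0.36 for Osgin1 and -0.27 for Gsr, all past the threshold.

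Srxn1 encodes sulfiredoxin, which repairs hyperoxidised peroxiredoxins. Its arrays read 2.54, 2.76, 2.73 and 3.08 in HFD DLP and 2.64, 2.91, 2.68, 2.96 and 2.70 in control DLP, against 3.22, 3.45, 3.24, 3.32 and 2.97 in HFD VP and 3.00, 2.86, 3.40, 3.00 and 2.88 in control VP. The lobes overlapped on both diets. The Srxn1 difference passed the threshold on the high fat diet, at 1.38-fold lower in DLP (log2 -0.46, 95% interval from -0.72 to -0.20, limma's adjusted p 0.00442), and missed it on the control diet (log2 -0.25, adjusted p 0.0837). The difference between these differences was -0.21 with an adjusted p of 0.769, so the lobe differences on the diets were not told apart. The Srxn1 probe sets disagreed. A second gave a log2 difference of -0.35 on the control diet (limma's adjusted p 0.0067) and -0.30 on the high fat diet (adjusted p 0.0228). The dimmest of those past the filter passed it through 4 VP arrays and gave -0.03 and -0.36 (adjusted p 0.91 and 0.184). Another, dimmer still, was above the array median on 0 arrays and was not tested. It was at 1.58 in HFD DLP, 1.40 in control DLP, 1.45 in HFD VP and 1.48 in control VP. With the offset of 16 the high fat diet difference was -0.16 and passed.

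Hmox1 lay below the array median on most arrays, and Slc7a11 on all of them. Hmox1 encodes haem oxygenase 1, which opens the haem ring, and macrophages as well as stressed epithelium are known to make it. It was above the array median on 4 arrays, HFD DLP 1 and HFD VP 3, 4 and 5. Its level was 1.73 ± 0.10 in HFD DLP (SD, n = 4), 1.46 ± 0.18 in control DLP, 1.81 ± 0.26 in HFD VP and 1.61 ± 0.18 in control VP (SD, n = 5 each). The log2 difference between DLP and VP was -0.15 on the control diet and -0.08 on the high fat diet, with limma's adjusted p of 0.347 and 0.632. Slc7a11 encodes the cystine-glutamate exchanger that brings in cystine for glutathione. It lay below the array median on all 19 arrays, at 1.09 ± 0.40 in HFD DLP, 1.28 ± 0.26 in control DLP, 1.10 ± 0.23 in HFD VP and 1.18 ± 0.31 in control VP (SD, n as for Hmox1), and was not tested with the other genes.

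**Figure D2:**
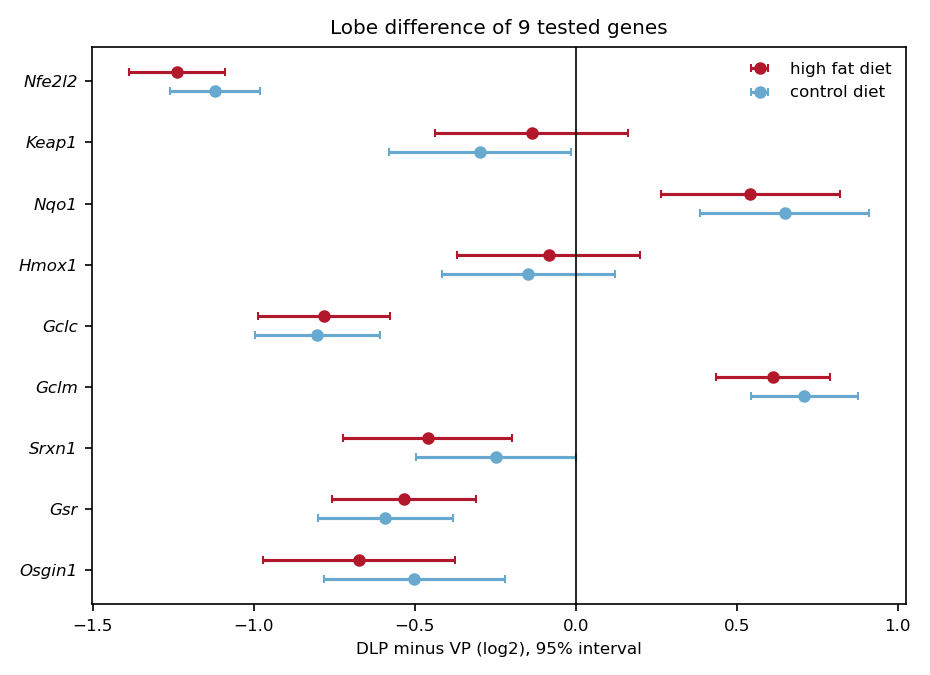
DLP minus VP (log2) for the 9 tested genes on the high fat diet and on the control diet, with 95% intervals from limma; values below 0 are lower in DLP. Nfe2l2 lies near -1.24 and -1.12, Gclc near -0.80, and Gclm and Nqo1 are the genes above 0 on both diets.

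Cell type markers also differed between the lobes, as did the averages of 1 of the 2 measures of RNA quality. All 4 basal epithelial markers tested and 4 of 6 smooth muscle markers were higher in DLP on the control diet, as were 4 of 4 nerve markers, while 2 of 6 macrophage markers were lower. On the high fat diet 2 of 4 basal, 4 of 6 smooth muscle and 3 of 4 nerve markers were higher in DLP. Of the macrophage markers 2 of 6 were lower. On the control diet 28.2% of all genes were higher in DLP and 26.8% lower. The high fat diet shares were 26.8% and 26.1%. The macrophage counts are near these shares and are not read as a result. Of 5 fibroblast and 5 endothelial markers tested, 1 each was higher on either diet. No erythroid or T cell marker passed. The nerve markers Nefl, Stmn2 and Th were above the array median on no VP array and passed the filter through DLP. Of 6 adipocyte markers listed, 2 were tested, and 1, Fabp4, was lower in DLP on both diets. Its log2 differences were -0.78 on the control diet and -0.54 on the high fat diet (limma's adjusted p 0.000301 and 0.0102). Car3, the other, was at 2.75 in control DLP and 2.79 in control VP. On the high fat diet the Car3 difference was 0.13 (limma's adjusted p 0.767). Of 8 luminal epithelial markers, 3 were higher and 4 lower on either diet. The summed linear level of the 6 smooth muscle markers ran from 2720 to 2963 in HFD DLP, 2330 to 2658 in control DLP, 1892 to 2661 in HFD VP and 1859 to 2368 in control VP. For the 4 basal markers the sums ran from 60.6 to 70.6, 54.9 to 88.4, 33.4 to 63.4 and 32.4 to 60.4 in the same order of groups, for 7 macrophage markers from 48.1 to 66.9, 44.4 to 133, 50.7 to 349 and 50.4 to 178, and for 5 nerve markers from 16.7 to 25.7, 14.2 to 131, 5.97 to 8.49 and 6.51 to 9.22. No marker of these lists was at 0 on all arrays of a group. The luminal sum, over 8 markers, was 9530 to 11274 in HFD DLP, 9179 to 11379 in control DLP, 4081 to 8183 in HFD VP and 3834 to 7189 in control VP. Pbsn, the brightest of the 8, weighs heavily in this linear sum. It was at 12.58 ± 0.15 in control DLP and 10.40 ± 1.83 in control VP (SD, n = 5 each). With 4 of the 8 markers lower in DLP, the sum is no measure of the amount of luminal epithelium. The level of the 3′ Gapdh probe set minus that of its 5′ probe set averaged -0.43 in HFD DLP, -0.41 in control DLP, -0.27 in HFD VP and -0.16 in control VP. Its ranges overlapped on the high fat diet, from -0.54 to -0.35 in DLP and from -0.41 to -0.19 in VP. On the control diet they did not overlap. The Gapdh difference was not tested. The same measure for Actb averaged 1.41 in HFD DLP, 1.53 in control DLP, 1.41 in HFD VP and 1.41 in control VP, with overlapping ranges between the lobes. The part of these differences in the lobe differences of the NRF2 genes was not tested.

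The diet changed none of the 9 genes past the threshold. The count was 0 of 9 in VP, where 1.11% of all genes passed, and 0 of 9 in DLP, where 0% did (limma). At an unadjusted p under 0.05 the counts were 1 of 9 in VP and 0 of 9 in DLP. In the mean of the diet differences over the lobes 0 of 9 passed, against 0.119% of all genes, and 2 of 9, Nfe2l2 and Hmox1, had an unadjusted p under 0.05. Hmox1 had passed the filter on low values through HFD arrays alone, so its place in that count is no support. The diet groups overlapped for each of the 9 genes in both lobes, where 2.58% of all genes did not overlap in VP and 3.15% in DLP. The share of genes whose diet difference itself differed between the lobes was 0.00853%, and 0 of the 9 genes were among them, with 0 at an unadjusted p under 0.05.

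Nfe2l2 in VP was the 1 gene of the 9 with an unadjusted p under 0.05 in a single lobe. Its HFD VP arrays lay between 5.83 and 5.94 and its control VP arrays between 5.58 and 5.93. Only control VP 3 reached the HFD arrays. The log2 difference was 0.18, or 1.13-fold higher on the high fat diet, with a 95% interval from 0.04 to 0.32, an exact permutation p of 0.0397 and limma's adjusted p of 0.193. When control VP 3 was left out, the difference was 0.24 (adjusted p 0.0694). In DLP the Nfe2l2 difference was 0.06 (interval from -0.08 to 0.21), and the mean over the lobes was 0.12 with an adjusted p of 0.326. The Gapdh measure named above also averaged lower on the high fat diet in VP, with overlapping arrays. All 6 smooth muscle markers had differences above 0 in VP, with a median of 0.21, though 0 of 6 passed the threshold. Des differed by 0.61 and Tagln by 0.26 (limma's adjusted p 0.0854 and 0.0827). In DLP all 6 were above 0 as well, with a median of 0.26. The 2 adipocyte markers tested, Car3 and Fabp4, differed by -1.19 and -0.23 in VP (limma's adjusted p 0.075 and 0.517). Car3 was above the array median on 1 of 5 HFD VP arrays. The 2 seminal vesicle markers tested had a median of 1.25 in VP, with 0 past the threshold. Those markers, Svs4 and Svs5, were each above the array median on 2 of 5 HFD VP arrays and 0 of 5 control VP arrays. Within VP they thus passed the filter through HFD arrays, and the median is no support. The summed linear level of the 4 listed ran from 1.04 to 98.5 in HFD VP and 1.59 to 4.22 in control VP. The HFD VP median of that sum was 3.06. Of the others, Svs2 was at 0.65 in HFD VP and 0.83 in control VP, and Svs6 at 1.12 and 0.77. The part of any of these in the Nfe2l2 difference was not tested.

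The 4 arrays through which Hmox1 passed the filter were all HFD arrays, so its diet differences are given as values and support nothing. The level in DLP was 1.85, 1.76, 1.70 and 1.61 in HFD DLP and 1.73, 1.43, 1.39, 1.52 and 1.23 in control DLP. Control DLP 1 was as high as the middle of the HFD arrays, and the other control arrays lay below all of them. The log2 difference was 0.27 (95% interval from -0.02 to 0.55, exact permutation p 0.0476) with limma's adjusted p of 0.902. In VP the Hmox1 arrays read 1.38, 1.74, 2.02, 1.95 and 1.96 in HFD mice and 1.35, 1.66, 1.83, 1.64 and 1.55 in control mice, a log2 difference of 0.20 (interval from -0.07 to 0.47, adjusted p 0.475). Over both lobes the mean difference was 0.23, with an adjusted p of 0.326. With the offset of 16 the Hmox1 differences were 0.0436 in DLP, 0.0379 in VP and 0.0408 over both lobes. The summed macrophage markers, listed above, overlapped between the diets in both lobes.

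The intervals give a rough bound on a diet difference that could have gone unseen. They use 1 spread per gene, shared by both lobes. With 1 weight per lobe, fitted over all genes, VP arrays had 0.74 and DLP arrays 1.39, so VP arrays scattered more. Intervals in VP are thus on average too narrow and those in DLP too wide. For Gclc the log2 difference between HFD and control was -0.001 in VP (95% interval from -0.19 to 0.19) and 0.02 in DLP (interval from -0.19 to 0.22). For Gclm it was 0.10 in VP (interval from -0.07 to 0.26) and -0.001 in DLP (interval from -0.18 to 0.18). Each of these intervals included 0. Nqo1 had a difference of -0.12 in VP (interval from -0.39 to 0.14) and -0.23 in DLP (interval from -0.51 to 0.05). Keap1, Gsr, Srxn1 and Osgin1 had differences between -0.13 and 0.21 in VP and between -0.22 and 0.08 in DLP. Their intervals all included 0 and reached out to 0.46 for Srxn1 in VP and to -0.52 for Osgin1 in DLP.

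**Figure D3:**
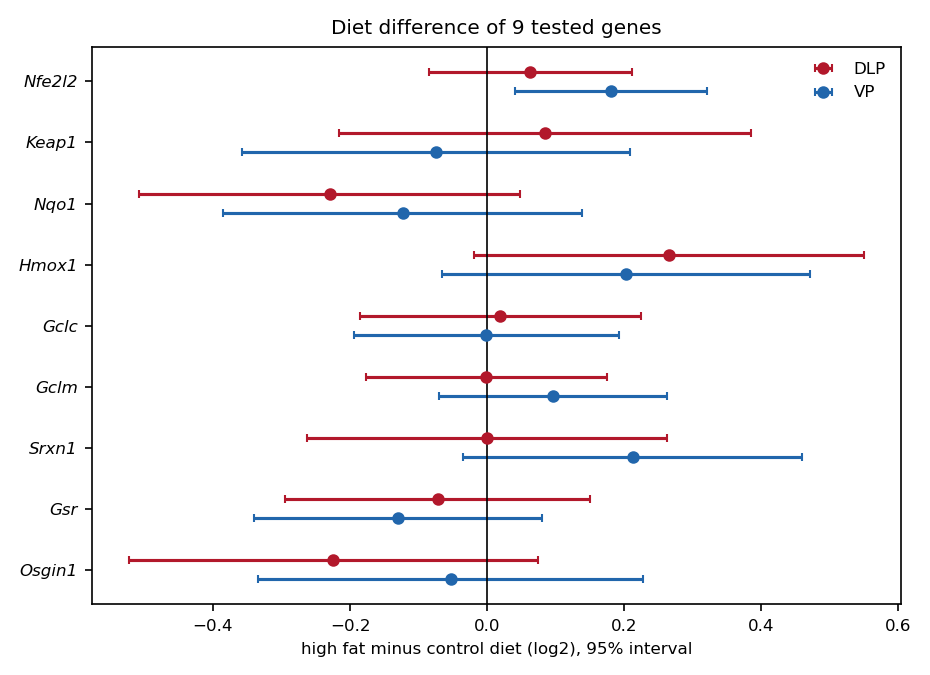
HFD minus control (log2) for the 9 tested genes in DLP and in VP, with 95% intervals from limma; values above 0 are higher on the high fat diet. All intervals but that of Nfe2l2 in VP, from 0.04 to 0.32, include 0.

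Other genes of the NRF2 system were taken as 7 lists from textbook knowledge. Their counts are read against the 28.2% and 26.8% of all genes that were higher and lower in DLP on the control diet. Of 18 NRF2 regulators tested out of 20 listed, 6 were higher and 3 lower in DLP on the control diet, with a median difference of 0.19. Nfe2l3, a relative of NRF2 in the CNC family, was lower, with a log2 difference of -0.95 (limma's adjusted p 4.09e-06). Dpp3 and Sqstm1, whose proteins compete for KEAP1, were higher by 0.51 and 0.45, and Ep300, an acetyltransferase coactivator, by 0.34. On the high fat diet 6 were higher and 2 lower. The lower genes were Nfe2l3, at -0.78, and Nfe2l1, another CNC factor, at -0.54. Cul3, the scaffold of the KEAP1 ligase, was higher by 0.42.

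Among 24 of 33 further NRF2 targets tested, 4 were higher and 9 lower in DLP on the control diet and 5 higher and 11 lower on the high fat diet, with medians of 0.02 and -0.07. The largest differences ran both ways. Gsta2, a glutathione transferase, was at 3.32 ± 0.15 in HFD DLP (SD, n = 4), 3.51 ± 0.45 in control DLP, 0.88 ± 0.30 in HFD VP and 0.68 ± 0.47 in control VP (SD, n = 5 each), with no VP array above the array median. It thus passed the filter through DLP alone, and the size of its log2 difference, 2.83 on the control diet, rests on low VP values and the assumed offset. Abcc3, an exporter of conjugates, was higher by 1.66, and Me1, malic enzyme, by 1.52. Cat, catalase, was lower on the control diet, with a log2 difference of -1.50. On the high fat diet Cbr3, a carbonyl reductase, and Gsta4, which conjugates lipid aldehydes, were lower, with differences of -1.48 and -1.56.

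Of 14 genes of glutathione synthesis and turnover tested (18 listed), 5 were higher and 5 lower in DLP on the control diet, and 5 higher and 4 lower on the high fat diet, with medians of 0.06 and 0.15. Gss, glutathione synthetase, which acts after glutamate-cysteine ligase, was at 4.96 ± 0.04 in HFD DLP (SD, n = 4) and 4.79 ± 0.06 in control DLP, against 3.63 ± 0.21 in HFD VP and 3.51 ± 0.42 in control VP (SD, n = 5 each). Its log2 difference was 1.28 on the control diet and 1.33 on the high fat diet. Slc3a2, the heavy chain that partners Slc7a11 and Slc7a5, was higher by 1.32, and Chac1, which degrades glutathione, by 1.68. Anpep, an aminopeptidase that cleaves the dipeptide left from extracellular glutathione, was lower, with a log2 difference of -2.12 on the control diet and -2.62 on the high fat diet. Its 4 HFD DLP arrays and 4 of its 5 control DLP arrays were at or below the array median.

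NADPH feeds the reactions of Gsr and Nqo1. Of 14 genes of its supply tested (15 listed), 6 were higher and 3 lower in DLP on the control diet and 6 and 4 on the high fat diet, with medians of 0.045 and 0.09. On the control diet the mitochondrial folate enzyme Mthfd2 was higher by 2.07, Me1 by 1.52 and the folate enzyme Aldh1l1 by 0.77. Nnt was lower, with a log2 difference of -2.37. Because of the Nnt deletion of this strain, named above, its RNA level is no measure of NADPH supply. For haem and iron, 3 of 15 tested genes (19 listed) were higher and 3 lower on the control diet, and 4 and 4 on the high fat diet. Fth1, ferritin heavy chain, was higher by 0.95, Ireb2, an iron-regulatory protein, by 0.72 and Slc11a2, an iron importer, by 0.56, while Abcb6, a porphyrin transporter, was lower, with a difference of -0.56.

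ATF4, the effector of the integrated stress response, shares targets with NRF2, Slc7a11 among them. The ATF4 list held 17 genes, Atf4 itself among them, and all were tested. In DLP 13 were higher and 1 lower on the control diet and 12 higher and 1 lower on the high fat diet. The median differences were 0.75 and 0.77. Atf4 was higher by 1.44 on the high fat diet. The lower gene was Eif4ebp1, at 7.14 in control DLP and 8.49 in control VP. Its difference on the high fat diet was -1.35 (limma's adjusted p 1.05e-08). These shares lie above the 28.2% and 26.8% of all genes that were higher on these diets. No test of the list was made. Slc7a5, a large neutral amino acid carrier, was higher by 2.89, Psat1, of serine synthesis, by 2.25 and Asns, asparagine synthetase, by 1.98 on the control diet. Asns was at 7.98 ± 0.26 in HFD DLP (SD, n = 4) and 7.74 ± 0.12 in control DLP, against 5.51 ± 0.19 in HFD VP and 5.76 ± 0.17 in control VP (SD, n = 5 each). The marker differences given above moved with the same lobes, and their part was not tested. Of 5 AHR genes tested out of 8, Cyp1b1 was higher by 0.42 and Nfe2l2, which AHR is known to induce, was lower on the control diet. On the high fat diet 0 of the 5 were higher, with Cyp1b1 at 0.31 (limma's adjusted p 0.104), and Nfe2l2 was again lower.

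**Figure D4:**
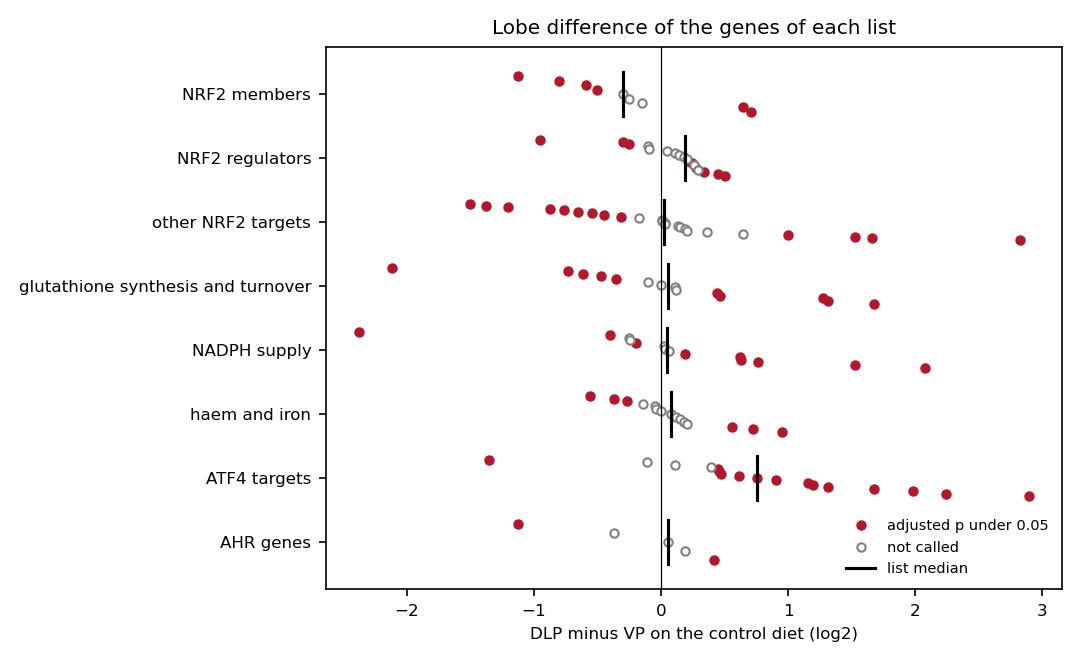
DLP minus VP on the control diet (log2) for each tested gene of 8 lists, the NRF2 genes described here at the top; filled points passed limma's adjusted p of 0.05, open points did not, and black bars are list medians. The ATF4 targets lie mostly to the right of 0 with a median of 0.75, and the other lists spread to both sides.

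The diet moved few genes of these lists. In VP, 1.11% of all genes passed. There 1 of 14 glutathione genes passed, Glrx2, a mitochondrial glutaredoxin, with a log2 difference of -0.38 on the high fat diet (limma's adjusted p 0.0401). Of 14 NADPH genes 1 passed, Mthfd1, a cytosolic folate enzyme that forms NADPH, higher by 0.34 (limma's adjusted p 0.0401). With each lobe fitted alone 0 of all genes passed in VP, so neither call held there. The remaining lists had 0 genes past the threshold in VP, and all lists had 0 in DLP. Nfe2l1 had the smallest p among NRF2 regulators in VP, with a difference of 0.29 and an adjusted p of 0.0624. Its level was 6.48 ± 0.13 in HFD VP and 6.19 ± 0.13 in control VP (SD, n = 5 each). In the same list Cul3 had a difference of -0.22 (adjusted p 0.116), and among further targets Gsta4 had 0.66 (adjusted p 0.119) and Txn1, thioredoxin, -0.18 (adjusted p 0.215).

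Array-to-array variation around the group means was compared between genes as a description. The genes most like Nfe2l2 over the 19 arrays were Mcmbp (Pearson r 0.84), Hsdl2 (0.78), Ccdc88a, Rhno1 and Dsn1 (0.77 each). Those most like Nqo1 were Fhod3 (0.77), Pclo (0.75), Atp12a (0.74), Cntrl and Srcin1 (0.73 each). None of the 10 genes followed here is among them. All these values share the same arrays and the rank-based scale, and they were picked as the highest of 11728 genes.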

How the data were processed

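The arrays measured total RNA of whole prostate lobes. The deposited values carry no stated scale. They were taken as log10 of the signal plus 1, and MAS5 is named per the submitters' processing notes. The base was inferred from the hybridization controls, whose mean deposited values, read as log10, stepped up by 0.53 (bioB to bioC), 0.74 (bioC to bioD) and 0.96 (bioD to cre). The nominal amounts would give 0.52, 0.70 and 0.60. Folds rest on this base and offset. Sorted values were identical on all 19 arrays, by a step not given in the sources used here. Values were converted to log2 with no further normalization.

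Of 45101 probe sets, 64 controls were left out. In the platform annotation 34945 probe sets had 1 symbol, 932 had several and 9160 had none, and symbols were updated by gene identifier for 34741. Probe sets above their array's median (1.85) on at least 4 arrays were kept, 24867 in all, and the brightest stood for each gene. Group means were fitted to all arrays with limma 3.58.1 in R 4.3.3 (lmFit, eBayes with a mean-dependent prior). P-values are two-sided and adjusted by Benjamini-Hochberg over 11728 genes at a threshold of 0.05. Permutation tests of single genes were exact, in Python 3.11.15 with scipy 1.17.1. The fit was tested on simulated data.

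The 10 genes, the lists and the alternatives were chosen with earlier results of these data known. All 10 genes are named. Of each list, up to 4 genes past the threshold with the largest difference were named, or the 2 with the smallest p. Atf4 and Eif4ebp1 of the ATF4 list were named besides. The 5 genes most like Nfe2l2 and Nqo1 were named too. The alternatives changed the filter, the offset, the probe set used, weights, the variance prior, blocks and the scaling (cyclic loess), fitted each lobe alone, or left out each array in turn. Arrays were not treated as paired by their replicate numbers. The number of arrays limits the precision. The anterior lobe was not analysed here.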

Additional observations from a re-analysis of the deposited data

Results flagged for a closer look

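Each of the 10 genes was checked in each of the 4 groups, 40 checks in all, for an array far from the rest of its group by Dixon's ratio of gap to range, and 2 arrays were far out. Chance alone does so in about 1 of 20 such checks. Keap1 on HFD VP 3 was at 4.28, below the other HFD VP arrays, with a gap of 0.749 of the range against a critical value of 0.71. HFD VP 3 is also 1 of the arrays that stood apart. Srxn1 on control VP 3 was at 3.40, above the other control VP arrays, with a gap of 0.742 of the range. No reason was tested for either.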

How the results depend on the processing

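The 13 lobe calls kept their direction and side of the threshold in 396 alternative values. They lost the threshold in 1, Srxn1 on the high fat diet with a dim probe set (-0.36, adjusted p 0.184). Both Nqo1 calls are among the 13, and they are no support because its probe set passed the filter through DLP arrays. With the stricter filter Nqo1, Hmox1 and Srxn1 had no value, and 5 genes passed on each diet, while the mean of probe sets and a threshold of 0.1 gave 7 and 8 on the control diet. Uncalled values passed 4 times, 3 for Keap1 and 1 for Srxn1, all given above. The sign turned 69 times, each time for an uncalled value, and the cause was not tested. In the values that follow, differences are HFD minus control unless stated, and "between lobes" means the DLP diet difference minus that in VP. By mean of probe sets, the difference became 0.0219 for Gclc in VP, 0.0847 for Gclm in DLP, -0.1233 for Srxn1 in DLP, -0.0399 for Srxn1 over both lobes and -0.0413 for Gsr between lobes. By another probe set, it became 0.0448 for Gclc, -0.126 for Srxn1 and 0.038 for Gsr in VP, 0.1703 for Gclm and -0.4568 for Srxn1 in DLP, 0.057 for Gclm, 0.0428 for Srxn1 and -0.1409 for Gsr between lobes, -0.2914 for Srxn1 over both lobes, and 0.0155 for Keap1 as DLP minus VP in HFD. With array weights it was 0.0967 for Gclc and 0.0283 for Osgin1 in VP, -0.0243 for Srxn1 in DLP and -0.0798 for Gclc between lobes. Cyclic loess gave 0.0044 for Gclc in VP and -0.0103 for Srxn1 in DLP. Without both arrays that stood apart it was 0.1155 for Gclc and 0.0501 for Osgin1 in VP and -0.0963 for Gclc between lobes. The labels tie no replicate number to a mouse. Deviations from the group means of DLP and VP arrays of a diet correlated at a median of 0.0807 (4 of 9 over 0.1) for same-numbered arrays and -0.0152 (3 of 36 over 0.1) for differently numbered ones, which does not settle a pairing. With the replicate number as a block the Srxn1 difference in DLP was -0.0412, and -0.0028 as a random block; the block changed no call of the 10 genes. Leaving out 1 array at a time gave, in VP, -0.0634 to 0.0587 for Gclc, -0.1474 to 0.0372 for Osgin1 and -0.1096 to 0.0026 for Keap1. In DLP it gave -0.0239 to 0.0184 for Gclm, -0.1013 to 0.08 for Srxn1, -0.0617 to 0.1996 for Keap1, -0.0175 to 0.0515 for Gclc and -0.1259 to 0.029 for Gsr. Between lobes it gave -0.0395 to 0.0827 for Gclc and -0.0453 to 0.1306 for Hmox1, and over both lobes -0.0685 to 0.0622 for Keap1 and -0.0221 to 0.039 for Gclc. Over all genes, the diet count in VP of 130 ran from 0 with each lobe fitted alone (1222 at an unadjusted p under 0.05) to 209 with the stricter filter, and from 70 to 148 without 1 array. The count in DLP ran from 0 to 6, that of the mean over lobes (14) from 5 to 44, that of the difference between lobes (1) from 0 to 3, and the lobe counts from 4697 to 6786 on the control diet (6451) and 4643 to 6771 on the high fat diet (6204).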

Other observations

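Around their group means, the 9 tested genes did not vary together over the 19 arrays. Their 36 pairs had Pearson correlations from -0.64 (Gclc with Gclm) to 0.58 (Nfe2l2 with Hmox1), with a median of -0.02, and 16 were above 0. Gclc with Osgin1 had 0.55 and Keap1 with Nqo1 had -0.53. These are descriptions over shared arrays on a rank-based scale.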
